A study of Mus musculus with 8 samples.

Results

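Zscan4a, Zscan4b, Zscan4c, Zscan4d, Zscan4e and Zscan4f are paralogs that lie side by side on mouse chromosome 7, and the m6A peaks on their exons are described here. A peak belonged to the family when its exon blocks shared 1 base or more, on the same strand, with an exon that GENCODE vM21 gives to one of these 6 genes. This gave 13 of the 18895 peaks in cells given DMSO and 17 of the 13001 peaks in cells given doxycycline (Dox). Each of these 30 peaks lay wholly within the exons of 1 gene.

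The peaks were made by the authors from methylated RNA immunoprecipitation sequencing (MeRIP-seq), in which an antibody captures RNA fragments that bear N6-methyladenosine (m6A) and the captured RNA is sequenced beside unselected input RNA. The cells were E14 mouse embryonic stem cells (ESCs), kept with leukemia inhibitory factor, that all carried a Dox-inducible Dux transgene and a tdTomato reporter driven by the promoter of the endogenous retrovirus MERVL. They received DMSO, the solvent control, or Dox for 24 h, with 2 immunoprecipitated and 2 input libraries per treatment and 8 libraries in all. The design compares the methylome with and without Dux induction at 24 h. Dux is a transcription factor that turns on genes of the 2-cell embryo and makes ESCs 2C-like. The model rests on a drug-driven transgene, and no sorting of 2C-like cells before RNA extraction is stated. The peaks of each treatment stood in 1 list that combined the replicates, so no value below has a replicate error and no test between treatments was made.

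Zscan4 proteins pair a SCAN domain, which binds other SCAN proteins, with C2H2 zinc fingers that bind DNA. In the mouse they are made in a burst at the 2-cell stage and in the rare ESCs that pass through a 2C-like state, where Zscan4 is known for telomere lengthening, loss of DNA methylation and activation of other 2C genes. m6A is laid on mRNA by the METTL3 and METTL14 methyltransferase, mostly at the adenosine of GGAC and of related 5-base forms named DRACH, where D stands for A, G or T, R for A or G, and H for A, C or T, and reader proteins such as YTHDF2 bind it and bring the mRNA to decay.

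The 6 genes and 3 further Zscan4 genes, Zscan4-ps1, Zscan4-ps2 and Zscan4-ps3, spanned chr7:10794242-11614112 (GRCm38/mm10). Zscan4a, Zscan4b, Zscan4d and Zscan4e are on the minus strand and Zscan4c and Zscan4f on the plus strand. The main transcript of each member, the one with the longest coding sequence or, in Zscan4a, its only transcript, has 4 exons. The coding sequence of Zscan4b and Zscan4e has 1515 bases and that of Zscan4c, Zscan4d and Zscan4f 1518 bases, with the stop codon left out, while Zscan4a has no annotated coding sequence and is an unprocessed pseudogene in GENCODE. The annotated 3′UTR is short in Zscan4b, with 57 bases, in Zscan4e, with 48, and in Zscan4f, with 129, and long in Zscan4c, with 551, and Zscan4d, with 547. The transcripts are close copies. Zscan4b and Zscan4e differed at 5 of 1722 aligned bases, Zscan4c and Zscan4f at 9 of 1806, and the least alike pair of members, Zscan4b and Zscan4d, at 60 of 1779, an identity of 96.6%. The proteins translated from the coding sequences showed the same grouping, with 2 differing residues between Zscan4b and Zscan4e, 3 between Zscan4c and Zscan4f, and 27 between Zscan4c and Zscan4d. A run of 4 zinc fingers of the C2H2 pattern was found in each coding member, between residues 397 and 503 of Zscan4c.

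Such copies bear on where a read can be placed. All 13 DMSO peaks and 11 of the 17 Dox peaks had another locus in the genome that matched at least 90% of the peak at 98% identity or more, against 7.30% of all DMSO peaks and 8.42% of all Dox peaks. At 95% identity over at least 50% of the peak, all 13 and all 17 had one, against 14.0% and 15.6%. RNA had been cut to fragments of about 150 nt. Of all windows of 150 nt in a transcript, an exact copy existed outside the gene for 86.3% in Zscan4f, 77.4% in Zscan4e, 68.4% in Zscan4b, 61.0% in Zscan4c, 25.1% in Zscan4a and 13.0% in Zscan4d. Zscan4d and Zscan4a were thus the members whose own sequence set them apart most, and a peak is assigned below to the gene at its position in the authors' list. E14 cells derive from a 129 strain while the reads were mapped to the C57BL/6J genome, and how this assigned reads among the copies was not tested.

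The sequences that the results turn on are windows of 30 bases around the 4 bases GGAC, and 1 stretch of a peak. Positions are counted from 1 at the 5′ end of the Zscan4c transcript. GGAC stood at positions 480, in exon 2, and 598, in exon 3, and was kept at both in all 9 Zscan4 genes.

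The members differed in the 5′UTR. At position 50 only Zscan4d had GGAC, through G53C, and the remaining members had GGAG there. The windows of the 4 members with a peak at this place, with the 4 bases in capitals, lie at chr7:11166094-11166123 (minus strand) for Zscan4d, chr7:11005781-11005810 (plus strand) for Zscan4c, chr7:10904962-10904991 (minus strand) for Zscan4b and chr7:10798992-10799021 (minus strand) for Zscan4a.
Zscan4d at 50: cttgaagttcactGGACaaagaggtgaggt
Zscan4c at 50: cttgaagttcaccGGAGaaagcagtgaggt
Zscan4b at 50: cttgaagttcactGGAGaaagaggtgatgt
Zscan4a at 50: cttgaagttcactGGAGaaagagttgaggt
The annotated first exon of Zscan4e and Zscan4f starts and ends further 5′ than that of the other members and has GGAC at its base 23.

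In the DMSO list, 4 of the 6 members carried peaks, against 11.3% of all 55450 annotated genes with at least 1 DMSO peak. Zscan4b, Zscan4c and Zscan4f had 4 peaks each, Zscan4d had 1, and Zscan4a and Zscan4e had 0. The peaks were 25 to 300 nt long, and together they covered 1725 of 12381 exon bases, or 13.9%. The score of a peak, read here from its values as the authors' −log10 p-value, was at least 10 throughout. Among these 13 peaks it ran from 10.7 in Zscan4d to 12.97 in Zscan4f. As a percentile within its own list, the score ran from 15.1 to 75.8 with a median of 42.4, so that the DMSO peaks of the members were spread over the lower and middle part of the list. A DMSO score of 15 or more was found in 0 of the 13, against 10.7% of all DMSO peaks. Cutting the DMSO list to its best peaks, to the size of the Dox list, left 8 of the 13. By construction this cut left 13001 of all 18895 DMSO peaks.

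All 13 DMSO peaks lay in exons 3 and 4, and exons 1 and 2 had 0 bases under DMSO peaks in every member. By gene, the bases covered were 700 in Zscan4f (35.7% of its exon bases), 600 in Zscan4c (26.4%), 400 in Zscan4b (22.2%) and 25 in Zscan4d (1.10%). Median cover over all 6243 genes with a DMSO peak was 7.90%. The near twins Zscan4c and Zscan4f shared most of their DMSO pattern when peaks were put on an alignment of the transcripts. The 525 shared bases were 87.5% of the Zscan4c bases and 75.0% of the Zscan4f bases. Zscan4b shared 196 bases with Zscan4c, 49.0% of its own, and 263 with Zscan4f, 65.75% of its own. None of the 13 peaks reached 1000 nt, as 1.29% of all DMSO peaks did, and 0 of the 4 genes had 50% of its exon bases covered, against 2.31% of genes with a DMSO peak.

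The longest DMSO peaks of the members lay in exon 4, 300 nt in Zscan4c (score 11.6) and 275 nt in Zscan4f (score 12.97, the highest DMSO score of the members). Of the 13 DMSO peaks, 4 held GGAC, or 30.8% (95% Wilson interval 12.7% to 57.6%, counting error only), against 54.0% of all DMSO peaks and 46.6% of those of 25 to 300 nt. DRACH was in 10 of the 13 against 84.9% of all, and the reverse complement GTCC in 6 of the 13 against 36.6%.

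The last DMSO peaks lay around the stop codon. In Zscan4c a peak of 125 nt (score 11.4) had 25 coding bases, the stop codon included, and 100 bases of 3′UTR, and in Zscan4f a peak of 200 nt (score 11.8) had 105 and 95. Zscan4b had a peak of 25 nt (score 10.9) whose middle base lay 53 bases before the stop codon, and in the only DMSO peak of Zscan4d, also 25 nt (score 10.7), it lay 38 bases before. The DMSO peaks thus fell into 4 zones of the aligned transcripts, and at any aligned base at most 3 members had one.

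In the Dox list, 5 of the 6 members carried peaks, against 9.03% of all annotated genes. Zscan4a, Zscan4b and Zscan4d had 4 peaks each, Zscan4c had 3, Zscan4f had 2 and Zscan4e had 0. Together the peaks covered 7947 exon bases, or 64.2%, which is 4.61 times the bases covered in the DMSO list. Over all genes that ratio was 0.681, as the Dox list was the shorter one. Scores ran from 10.03 to 120.0 with a median of 21.8, and the median percentile within the list was 97.98 (95% interval from order statistics, 90.01 to 99.4). That interval treats the 17 peaks as independent, which peaks on close copies are not. Of the 17 peaks, 12 were among the top 5% of the list by score, where 5.01% of all Dox peaks stood. The lists hold no read counts, so more methylated molecules, more RNA per cell and more cells in the 2C-like state cannot be told apart.

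**Figure D1:**
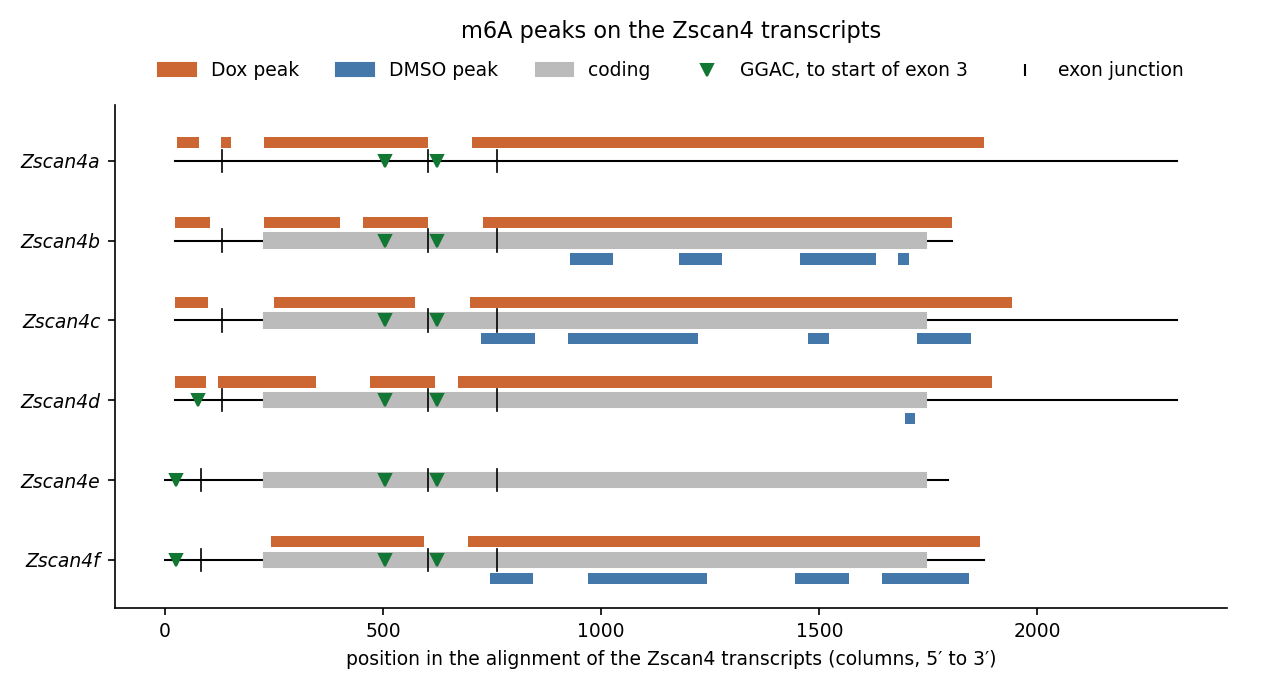
The 6 member transcripts are drawn 5′ to 3′ on their common alignment (columns), with Dox peaks above each line, DMSO peaks below it, coding sequence in grey, exon junctions as ticks and the GGAC up to the start of exon 3 as triangles. Dox peaks lay over exon 2 and over exons 3 and 4 in 5 members and over the 5′ leader in 4 of them, DMSO peaks lay inside the last zone, and Zscan4e had none.

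Each of the 5 members carried 1 broad Dox peak that began in exon 3, ran through most of exon 4 and passed the stop codon, or in Zscan4a the base aligned with it. It was 1175 nt long in Zscan4a, 1075 in Zscan4b, 1225 in Zscan4c, 1225 in Zscan4d and 1175 in Zscan4f. Of all Dox peaks, 1.32% were at least 1000 nt long. On the Zscan4c transcript the broad peaks began between positions 648 and 705 and ended between positions 1782 and 1900, and the Zscan4b peak ended with the last annotated base of its transcript. The zinc finger region was covered whole in Zscan4b, Zscan4c, Zscan4d and Zscan4f. Beyond the stop codon the broad peaks held 57 bases in Zscan4b, 120 in Zscan4f, 147 in Zscan4d and 175 in Zscan4c. The far part of the long 3′UTR of Zscan4c and Zscan4d, past position 1900, had 0 peaks in either list.

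The scores of the broad peaks fell into a high pair and a lower trio. Zscan4b had 120.0, the 10th of all 13001 Dox peaks, and Zscan4f 113, the 12th. Zscan4d had 37.4, Zscan4a 31.5 and Zscan4c 26.2. Among the 172 Dox peaks of at least 1000 nt, whose median score was 12.7, the 5 member peaks ranked 1, 2, 3, 5 and 6. The order did not follow the likeness of sequence, since Zscan4c and Zscan4f differed at 9 aligned bases and had scores of 26.2 and 113. Both genes of the high pair have a short annotated 3′UTR and 100% and 99.2% of exon 4 under the peak, whereas 75.5% of exon 4 was covered in Zscan4c, 73.9% in Zscan4d and 72.4% in Zscan4a. Whether the annotated transcript end or the sharing of reads among copies moved these scores was not tested.

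**Figure D2:**
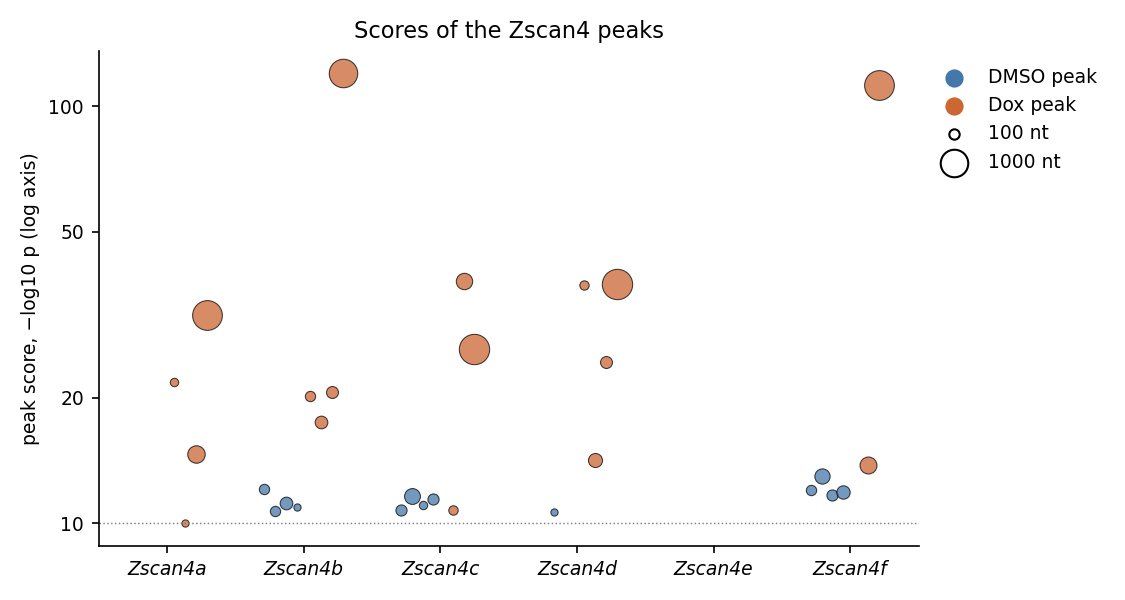
Each point is 1 peak of a member, with the score, read as the authors' −log10 p-value, on a log axis, the area growing with peak length, and the list given by colour. The DMSO peaks of the members lie between 10.7 and 12.97. Among their Dox peaks, the broad peaks of Zscan4b and Zscan4f stand highest, at 120.0 and 113. Scores are not compared between the lists as levels.

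The 13 DMSO peaks lay inside the broad Dox peaks with all of their bases. The broad Dox peak held 4 DMSO peaks in each of Zscan4b, Zscan4c and Zscan4f and 1 in Zscan4d. The share of the broad peak that was under DMSO peaks was 59.6% in Zscan4f, 49.0% in Zscan4c, 37.2% in Zscan4b, 2.04% in Zscan4d and 0% in Zscan4a. Among the 12050 Dox peaks that shared bases with the DMSO list, 0.207% took in 3 or more DMSO peaks, as 3 of the 4 such member peaks did. This background was not matched for length. The member peaks, of 1075 to 1225 nt, have more room for DMSO peaks than the median Dox peak of 125 nt. No DMSO peak of a member stood outside the Dox peaks, whereas 43.0% of all DMSO peaks shared no base with the Dox list. The 43.0% was not matched for Dox cover, which was 73.9% to 100% of exon 4 in the members with DMSO peaks.

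The remaining 12 Dox peaks and the broad peak of Zscan4a shared no base with the DMSO list. Thus 13 of 17 were called in the Dox list alone, or 76.5% (52.7% to 90.4%). The same was true of 7.31% of all Dox peaks. A place without a DMSO peak lacks a call, and whether it lacked m6A was not tested. By immunoprecipitation and qPCR, the paper found m6A on Zscan4a, Zscan4c, Dux and Usp17la mRNA both with and without Dox. Among the 12 Dox peaks, a first set of 7 lay over exon 2, which encodes the N-terminal part with the start codon. Zscan4a had 1 of 375 nt (score 14.6), Zscan4c 1 of 325 nt (38.1) and Zscan4f 1 of 350 nt (13.8). Zscan4b had 2, of 175 nt (17.5) and 150 nt (20.6), parted by 50 bases. Zscan4d had 2, of 225 nt (14.2), reaching back into exon 1, and of 150 nt (24.4), reaching into exon 3. All 7 stood between the 86.2nd and the 99.5th percentile of the list, and the Zscan4c peak ranked 67th of 13001.

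A pair of stretches in exon 2 was under a Dox peak in all 5 members, at positions 226 to 322 and 448 to 550. The second of them holds the GGAC at 480. Around it the window of 30 bases was the same in all members but Zscan4d, which differed outside the 4 bases. The last 300 bases of the Zscan4c exon 2 peak (chr7:11006602-11006901, plus strand) are printed, as this was the highest-scoring Dox peak of the members among those with no DMSO counterpart, with GGAC in capitals.
Zscan4c Dox peak 2: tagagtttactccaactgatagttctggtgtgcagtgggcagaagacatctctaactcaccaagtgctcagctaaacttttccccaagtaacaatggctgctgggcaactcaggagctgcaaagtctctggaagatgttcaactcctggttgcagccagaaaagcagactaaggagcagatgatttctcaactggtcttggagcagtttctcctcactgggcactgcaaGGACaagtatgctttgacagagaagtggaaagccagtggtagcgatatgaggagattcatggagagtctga

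By contrast, the GGAC at 598, near the start of exon 3, was under a Dox peak in 0 of the 5 members with Dox peaks. The contrast is one of the Dox list, as in the DMSO list neither place was under a member peak. The window at 598 in Zscan4c (chr7:11008772-11008801, plus strand) is printed beside that at 480 (chr7:11006818-11006847, plus strand), with GGAC in capitals, because the motif was the same and the Dox peaks were not.
Zscan4c at 480: ctgggcactgcaaGGACaagtatgctttga
Zscan4c at 598: tgtttcaatgcaaGGACaagaagccctctt
The gap at 598 was narrow and shared. The Dox peaks before it ended at positions 550 to 597 and those after it began at positions 648 to 705. Positions 598 to 647 were the only stretch of the coding sequence with a Dox peak in 0 of the 5 members. Peak edges are coarse, as 12968 of all 13001 Dox peaks had lengths in multiples of 25 nt. The Zscan4d peak before the gap ended at position 597, next to the GGAC at 598. RNA fragments of about 150 nt were longer than the gap. Whether m6A at 480 and at 598 differed was not tested.

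A second set of 5 short Dox peaks lay in the 5′ leader. They were 50 nt (score 21.8) and 25 nt (10.03) in Zscan4a, 100 nt (20.2) in Zscan4b, 75 nt (10.7) in Zscan4c and 72 nt (37.3) in Zscan4d, while Zscan4f had none. The Zscan4d peak covered the first 72 bases of the transcript, ranked 74th in the list and held the GGAC that Zscan4d alone has at position 50. The peaks of Zscan4a, Zscan4b and Zscan4c over the same place had GGAG there, and the Zscan4b peak held a GGAC that belongs to the first exon of its other annotated transcript. Of the leader peaks 3 of 5 had another locus of at least 98% identity, which for a peak of 25 to 100 nt needs only a short match.

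**Figure D3:**
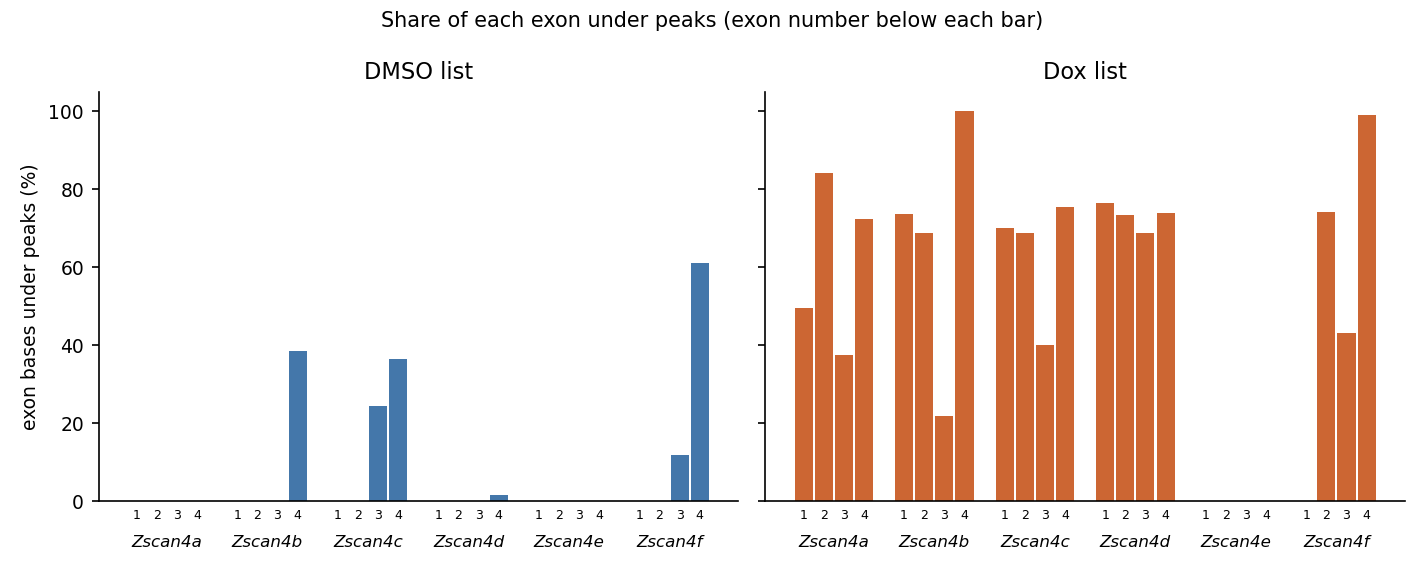
Bars give the percent of bases of exons 1 to 4 of each member that lay under peaks, at left for the DMSO list and at right for the Dox list. DMSO peaks were in exons 3 and 4 only, and with Dox all 4 exons were reached in Zscan4a, Zscan4b, Zscan4c and Zscan4d.

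Laid on the alignment, the Dox peaks of the 5 genes had nearly the same outline. Of the 1731 Zscan4c bases that all 5 have, 1275, or 73.7%, were under a Dox peak in every one of them, and 50, or 2.89%, in none. In the DMSO list 0 bases were covered in 4 or more members. Zscan4d, the member with the fewest exact copies elsewhere, shared 1469 Dox bases with Zscan4c, or 87.9% of its own. Of the Zscan4d windows of 50 nt, 51.4% still had an exact copy outside the gene. Whether reads shared among the copies made the common outline was not tested. Members share sequence and are no replicates of each other.

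GGAC was present in 12 of the 17 Dox peaks, or 70.6% (46.9% to 86.7%), against 55.9% of all Dox peaks. Read by length, the members stood near the background. All 5 broad peaks held it, and so did 100% of the 71 Dox peaks of 1075 to 1225 nt. It was in 5 of the 7 exon 2 peaks against 74.9% of Dox peaks of 150 to 375 nt, and in 2 of the 5 leader peaks against 28.9% of those of 25 to 100 nt. DRACH was present in 14 of 17 against 85.4% of all. The reverse complement GTCC was present in 6 of 17 against 37.0%.

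The middle base of a member Dox peak lay within 200 nt of the stop codon in 0 of the 13 peaks of coding members, against 25.2% of 12490 Dox peaks on coding transcripts. The middle stood 435 to 478 bases before the stop codon in the 4 broad peaks among them and 1201 to 1687 bases before it in the exon 2 and leader peaks. By any base of the peak, 4 of the 13, or 30.8%, came within 200 nt, 1 in each of Zscan4b, Zscan4c, Zscan4d and Zscan4f, against 31.1% of all Dox peaks on coding transcripts.

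For each gene, the exon bases under Dox peaks were set against those under DMSO peaks. They were 1672 and 25 in Zscan4d, 1625 and 0 in Zscan4a, 1500 and 400 in Zscan4b, 1625 and 600 in Zscan4c and 1525 and 700 in Zscan4f. More bases under Dox than DMSO peaks were found in 8.66% of the 6407 genes with a peak in either list, and the median difference, Dox minus DMSO, was -125 bases. By this difference Zscan4d, with 1647 bases, was 1st and Zscan4a, with 1625, 2nd of the 6407 genes. Zscan4b was 11th, Zscan4c 12th and Zscan4f 22nd. The gain was not particular to Zscan4. Of the Usp17l family, taken up below, Usp17lc was 3rd with 1550 bases, Usp17le 4th, Usp17ld 6th, Usp17la 9th and Usp17lb 10th with 1125. At least 1000 more bases under Dox peaks were found in 4 of the 5, against 0.203% of the 6407. The 3 members with 400 or more DMSO bases came last in this order, while the Dox cover differed little, from 71.3% in Zscan4a to 83.2% in Zscan4b. At least 50% of exon bases were under Dox peaks in all 5, as in 2.48% of the 5007 genes with a Dox peak. A Dox peak with 0 DMSO peaks was the case in 1 of the 5, Zscan4a, against 3.28% of these genes.

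**Figure D4:**
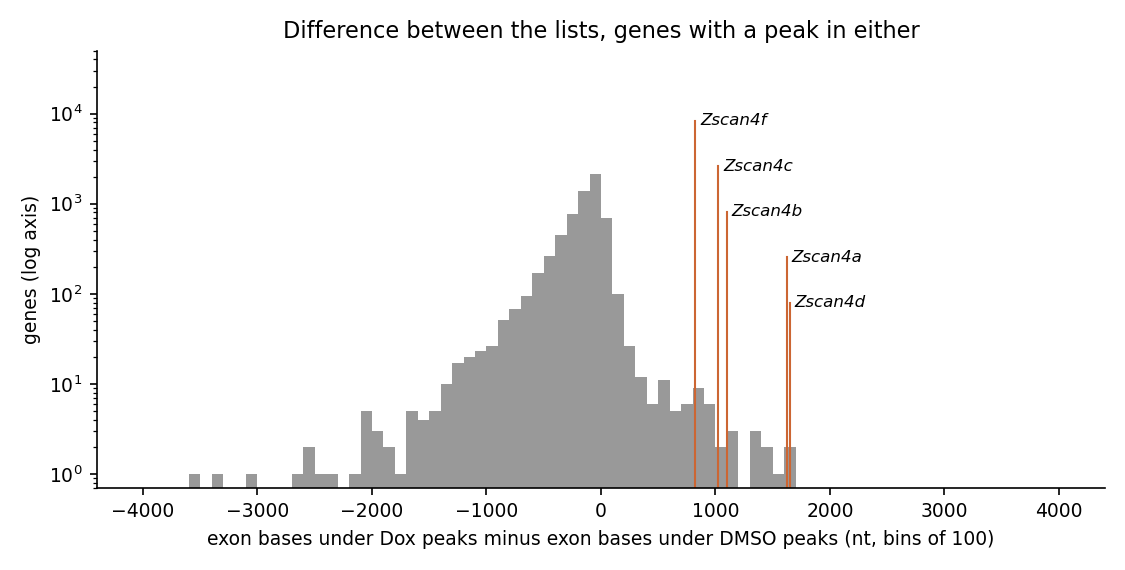
Grey bars count genes (log axis) by the difference between exon bases under Dox peaks and under DMSO peaks, in bins of 100 nt, and lines mark the members with peaks at heights chosen for the labels. The 5 members lie between 825 and 1647 bases, at the right edge, while 86.3% of genes had fewer bases under Dox peaks.

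Zscan4e had 0 peaks in both lists although 1722 of its bases align with Zscan4b at 5 differences, of which 3 lay in Dox peaks of Zscan4b. Zscan4-ps1, Zscan4-ps2 and Zscan4-ps3 also had 0 peaks in both lists. Zscan4-ps2 differs from Zscan4f at 4 of 1806 aligned bases. GENCODE gives these 4 genes as protein coding, whereas RefSeq calls them pseudogenes and lists 0 transcripts for them. RefSeq lists 1 transcript for each of the 5 members with peaks, and it calls Zscan4a among them a transcribed pseudogene. Which annotation the peak caller was given is not stated, and whether this set where peaks could be called was not tested.

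Other gene groups place the family. Of 5 genes of the Usp17l family, deubiquitinases that rise in 2C-like cells, 5 had Dox peaks and 0 had DMSO peaks, and their Dox peaks covered 62.7% of their exon bases, near the 64.2% of the Zscan4 members. Their best scores ran no higher than 19.7, in Usp17le. Of 13 other 2C genes, 7 had Dox peaks and 1, Gm6763, had DMSO peaks, and the cover with Dox was 12.2%. Duxf3, the name of the endogenous Dux gene in GENCODE, had 0 DMSO peaks and 4 Dox peaks over 600 bases, and whether these came from the transgene was not tested. The 10 other SCAN zinc finger genes, relatives of the same domain build, had 7 genes and 3700 bases under DMSO peaks and 4 genes and 2400 bases under Dox peaks, a ratio of 0.649 that is near the 0.681 over all genes. Zscan10, a factor of ESCs, held most of these, with 2350 and 1900 bases, so the ratio rests mostly on 1 gene. Zscan18 had 400 and 150 bases, and Zscan21 and Zscan26 each had 225 and 175. Zscan20, Zscan22 and Zscan25 had 275, 150 and 75 DMSO bases and 0 Dox bases.

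Of 6 genes tied to Zscan4 by earlier work, all 6 had peaks in both lists. Their Dox bases were 0.721 times their DMSO bases, again near the ratio of 0.681 over all genes, and no drop particular to them is read from the values. Dppa2 and Dppa4, which act upstream of Dux, had 525 and 575 bases under DMSO peaks and 425 and 275 under Dox peaks. Rif1, a repressor of the 2C-like state and of Zscan4, had 3050 and 1975 bases. Dnmt1 and Uhrf1, which maintain DNA methylation, had 2250 and 1925 bases in the DMSO list and 1300 and 1225 in the Dox list. Tbx3, a pluripotency factor, was near level with 2800 and 2825. The pluripotency markers Pou5f1, Sox2, Nanog, Klf4, Esrrb and Zfp42 all carried peaks in both lists.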

How the data were processed

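MeRIP-seq had been done on poly(A) RNA of E14 ESCs, fragmented to about 150 nt, in 8 stranded libraries. The authors cleaned the reads with fastp 0.19.4, mapped them to mm10 with HISAT2 2.2.1 and used exomePeak2 to find peaks, IP against input. ChIPseeker is listed without a role. The version and settings of exomePeak2, its gene annotation, the way replicates were combined and the depth behind each peak are not given in the sources used here. The deposited lists, 1 per treatment, give each peak's span, strand, exon blocks and a value read as the authors' −log10 p-value, called the score here. It was used to describe and rank peaks within a list, and as a threshold in the alternatives.

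Peaks were joined to GENCODE vM21 exons of GRCm38 by strand with a minimum of 1 shared base, and peak lengths are sums of exon blocks. A percentile is the share of the other peaks of the list with a lower score. Positions use the transcript with the longest coding sequence, then the longest. The Zscan4 transcripts were aligned with mafft 7.526. Other loci were searched with blastn 2.17.0 in the C57BL/6J chromosomes and unplaced sequences, with hits under 10000 bases apart joined. For 7 DMSO and 4 Dox peaks on a sequence not analysed here, motifs and other loci were left out. GGAC, GTCC and DRACH were searched in the exon blocks on the peak's strand. Single motif places and sequences downstream of the start of exon 3 are not reported here. Proteins were translated from the coding sequence, and zinc fingers were found by the C2H2 pattern of cysteine and histidine spacing. Scripts ran in Python 3.11.15 with numpy 2.4.6, scipy 1.17.1, pysam 0.24.0 and matplotlib 3.10.9, and the overlap steps were tested on simulated intervals. Wilson 95% intervals and the order-statistics interval cover counting error only, and they treat peaks on close copies as independent.

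The members, the gene lists and the measures were chosen with earlier results of these data known. All 6 members are named, and other genes only from fixed lists: the other Zscan4 genes, other SCAN zinc finger genes, the Usp17l family, other 2C genes and genes tied to Zscan4 by earlier work. The 6 pluripotency markers were added after the files were seen. Alternatives covered the score threshold, equal list sizes, strand, transcript, overlap, introns, near-identical loci, the motif and the stop codon window.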

Additional observations from a re-analysis of the deposited data

How the results depend on the processing

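No paired analysis was possible because the replicates of a treatment stand combined in 1 list, and for the same reason no replicate could be left out. Strand, introns, the transcript used and asking for 50% of a peak in member exons left the number of member peaks at 13 with DMSO and 17 with Dox. A score of at least 15 or at least 20 left 0 DMSO peaks and 0 covered bases. Of all DMSO peaks, 10.7% scored at least 15. In the Dox list, 12 member peaks (6897 bases) passed the first threshold and 11 (6722 bases) the second. Scores are not compared between the lists as levels. Cutting the DMSO list to the size of the Dox list left 8 of the 13 DMSO peaks, over 1400 bases, and by construction 13001 of all 18895. Without peaks that match another locus at 98% identity over 90% of their length, the DMSO count was 0 with 0 bases and the Dox count 6 with 2875 bases, and at 95% over 50% both counts were 0 with 0 bases, because these peaks lie in copies of one sequence. The share of Dox peaks without a DMSO peak was 94.1% when 50% of the Dox peak had to be shared and 100% when 50% of both peaks had to be. The median percentile of the score was 99.5 with the best peak of each gene. The share of Dox peaks at the stop codon was 30.8% by any base of the peak and 0% in windows of 100 and 400 nt.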
